A study of Mus musculus with 6 samples.

Results

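The genes described here encode the mitochondrial solute carriers of family 25, the largest family of transporters of the inner mitochondrial membrane. They were taken as every row of the deposited count table whose symbol starts with Slc25a and a digit, or is Ucp1, Ucp2 or Ucp3, which gave 50 of 25664 rows. The comparison is of alveolar macrophages from Vav1cre/+ Pex5fl/fl mice, called Pex5-deficient (3 libraries), with those from Pex5fl/fl mice without the recombinase, called control (3 libraries). All 6 libraries thus carry the floxed Pex5 alleles. Vav1-Cre acts in blood-forming cells and their progeny, so the recombinase is not limited to macrophages. The sorted cells came from lavage fluid, and the sources used here do not state the age or sex of the mice, nor whether each library came from its own mouse. Each p-value is thus set against the differences among 3 libraries a group, some of which may be technical.

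Each family member folds into a bundle of membrane helices built from a repeated unit and alternates between a state open to the cytosol and a state open to the matrix. Between them they exchange ADP for ATP, bring in phosphate, and move the carboxylates, amino acids, nucleotides and cofactors that the matrix cannot make or must release. The uncoupling proteins belong to the same family. Ucp1 lets protons return without ATP synthesis in brown fat, while Ucp2, the form of immune cells, is known to export C4 metabolites from mitochondria and to limit the output of reactive oxygen in macrophages. The family name is not exact for every member, since Slc25a17 sits in the peroxisomal membrane and Slc25a46 in the outer mitochondrial membrane. PEX5 is the receptor that brings matrix enzymes into peroxisomes. Membrane proteins of peroxisomes such as SLC25A17 reach them by another receptor.

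Libraries held 13325609 to 19413838 counts in Pex5-deficient macrophages and 14226108 to 18987200 in control macrophages. Pex5 itself was at 29.6 to 36.3 CPM (counts of a gene as a share of its library, after scaling) in Pex5-deficient and 29.7 to 33.0 CPM in control libraries, and such a count over the whole gene does not check the removal of some of its exons. All 14 markers of alveolar macrophages were counted. Their summed level was 32941 to 74262 CPM in Pex5-deficient and 45091 to 67648 CPM in control libraries, most of it Chil3 (48108 ± 19516 CPM in Pex5-deficient and 43069 ± 9852 CPM in control macrophages, SD, n = 3 each). Of the 14, 3 passed the test. Siglecf was lower, at 219 ± 39.0 CPM in Pex5-deficient and 651 ± 28.6 CPM in control macrophages (adjusted p = 0.00334). Krt79 was lower too, at 322 ± 50.7 CPM in Pex5-deficient and 875 ± 288 CPM in control macrophages (adjusted p = 0.0233). Fabp4 was higher, at 203 ± 42.8 CPM in Pex5-deficient and 73.5 ± 36.97 CPM in control macrophages (adjusted p = 0.0482). Itgax, Adgre1 and Mertk were lower in every Pex5-deficient library without passing (adjusted p = 0.243, 0.0734 and 0.331). Apart from Fabp4, only Chil3 and Pparg had a positive log2 fold change, and all other markers of this list had a negative one. Of 12 neutrophil markers 6 were at 0 in all libraries, among them S100a9, Ly6g and Retnlg, and 4 were tested. S100a8 and Cxcr2 passed the test as higher. Mmp8 was higher in every Pex5-deficient library without passing (adjusted p = 0.156). Csf3r leaned the other way, at 28.1 ± 9.44 CPM in Pex5-deficient and 40.5 ± 7.84 CPM in control macrophages, with overlap (adjusted p = 0.279). The summed neutrophil level was 126 to 188 CPM in Pex5-deficient and 84.9 to 98.9 CPM in control libraries. The part of these markers in the values below was not tested. Erythroid markers summed to 0.0782 to 5.25 CPM in Pex5-deficient and 0.156 to 0.203 CPM in control libraries. The highest of these sums was that of Pex5-deficient replicate 2, which also stood apart in other ways. The 50 most abundant genes made up 30.4% of its counts, where the other libraries had 38.3% to 42.1%, and its scaling factor by trimmed mean of M values (TMM) was 1.34, against 0.90 to 1.03.

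The sequences shown are the promoter windows, 250 bases before to 50 bases after the start, of the neighbours Ucp3 and Ucp2, which were both lower in every Pex5-deficient library, and of Slc25a33, the member with the smallest p. They are from RefSeq on GRCm38.p6, each written 5′ to 3′ on the strand of its gene. The windows are chr7:100493108-100493407 (plus strand) for Ucp2, chr7:100472741-100473040 (plus strand) for Ucp3 and chr4:149774218-149774517 (minus strand) for Slc25a33. Capitals mark matches on either strand to 5 motifs of promoters, which did not overlap in these windows. The first motif was the E-box CACGTG, which several growth and metabolic factors bind. The second was TGACGTCA, the element that answers to cyclic AMP. The others were the boxes known as CCAAT and TATAAA, and the GC box GGGCGG, which reads CCGCCC from the other strand.
Ucp2: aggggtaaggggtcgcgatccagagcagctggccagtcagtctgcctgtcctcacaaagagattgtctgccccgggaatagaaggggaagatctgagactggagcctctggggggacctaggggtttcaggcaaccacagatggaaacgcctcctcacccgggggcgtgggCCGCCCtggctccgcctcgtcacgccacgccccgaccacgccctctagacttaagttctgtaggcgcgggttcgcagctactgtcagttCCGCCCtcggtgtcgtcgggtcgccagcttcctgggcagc
Ucp3: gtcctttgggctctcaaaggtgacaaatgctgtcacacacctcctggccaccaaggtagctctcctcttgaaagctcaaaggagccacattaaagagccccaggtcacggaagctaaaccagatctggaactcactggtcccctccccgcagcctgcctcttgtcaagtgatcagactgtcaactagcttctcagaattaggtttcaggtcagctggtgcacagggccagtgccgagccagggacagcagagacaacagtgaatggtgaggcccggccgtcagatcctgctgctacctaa
Slc25a33: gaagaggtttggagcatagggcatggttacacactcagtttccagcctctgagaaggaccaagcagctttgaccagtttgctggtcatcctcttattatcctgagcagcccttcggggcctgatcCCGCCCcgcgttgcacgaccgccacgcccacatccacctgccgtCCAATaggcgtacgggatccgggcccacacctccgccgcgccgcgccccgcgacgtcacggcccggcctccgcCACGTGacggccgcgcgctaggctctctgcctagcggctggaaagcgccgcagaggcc
The Ucp2 window held 2 GC boxes and none of the other 4 motifs, and the Slc25a33 window held 1 E-box, 1 CCAAT and 1 GC box. The Ucp3 window held none of the 5, which says only that these letters are not in it. The share of G and C was 64.3% for Ucp2, 55% for Ucp3 and 66% for Slc25a33, where the median of all 32851 windows was 52.7%. Windows were found for 39 members, 49 in number because some genes have several starts. Of these, 39 windows held GGGCGG (79.6%, against 35.7% of all windows), 22 CCAAT (44.9%, against 37.4%), 8 CACGTG (16.3%, against 7.15%), 2 TGACGTCA (4.08%, against 1.79%) and 2 TATAAA (4.08%, against 13.6%). The set of all windows includes genes that encode no protein, and a match is not a site of binding.

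Alveolar macrophages of both genotypes used most of the family, and Ucp2 had the most counts of its members. Corrected for transcript length it stood level with Slc25a5 in Pex5-deficient macrophages, at 1071 CPM per kilobase for Ucp2 and 1072 for Slc25a5. The shares of Ucp2 that follow are of CPM not corrected for length. It took 59.8%, 55.4% and 57.0% of the family's summed CPM in Pex5-deficient replicates 1 to 3, against 68.5%, 67.9% and 70.7% in control replicates 1 to 3. No member passed the test for a difference between the genotypes. At a Benjamini-Hochberg adjusted p under 0.05 from edgeR's quasi-likelihood fit, 0 of 37 tested members were called, where 3.25% of all 11011 tested genes were (1.74% higher and 1.51% lower). DESeq2, the other tool run, called 1 member, Ucp2, where it called 6.02% of 12314 genes. At an unadjusted p under 0.05 there were 9 members, 6 higher and 3 lower in Pex5-deficient macrophages (24.3%, against 18.9% of all genes, 9.70% higher and 9.17% lower). For 10 tested members the 3 Pex5-deficient libraries did not overlap with the 3 control libraries, 7 higher and 3 lower (27.0%, against 26.1% of all genes, 13% higher and 13.1% lower). These shares were near those of all genes.

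Most members' differences were bounded by their intervals to less than 2-fold. Of the 37 tested, 24 had a positive and 13 a negative log2 fold change, Pex5-deficient over control. The median was 0.05, where that of all genes was -0.00077, and the range was -0.80 to 0.67. The 95% interval of the difference lay within a 2-fold change in either direction for 32 of 37 members (86.5%, against 80.8% of all genes) and within 1.5-fold for 22 (59.5%, against 47.7%). The 5 whose interval reached past 2-fold were Ucp2, Slc25a42, Slc25a33, Slc25a28 and Slc25a40. When libraries were scaled by their size only, the median over all genes shifted by 0.17 (log2), and this put 31 of the 37 members above 0. Measured from that median, 1 member changed sign.

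**Figure D1:**
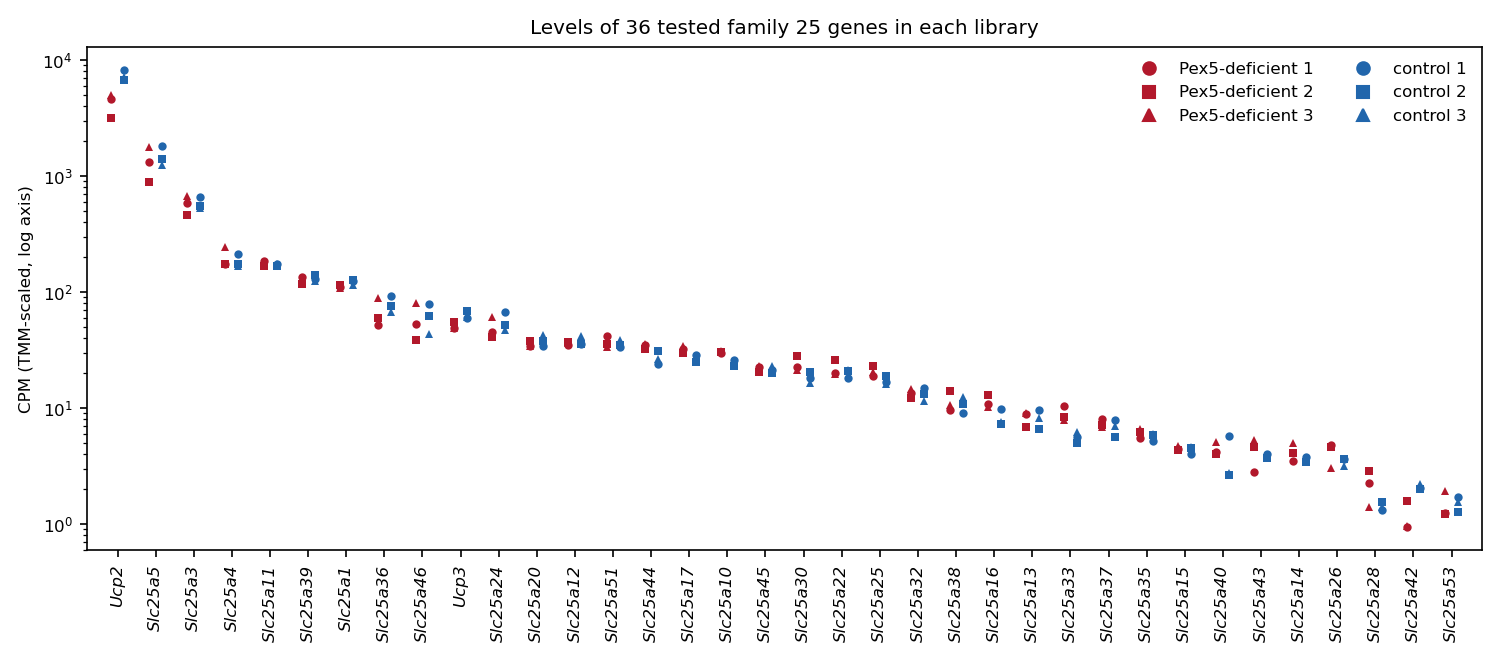
CPM scaled by TMM, on a log axis, of 36 tested members in each library, ordered by their mean over all libraries. Red points are the 3 Pex5-deficient and blue points the 3 control libraries, one shape per replicate number. Ucp2 lies highest, with all red points (3154 to 5038 CPM) below all blue ones (6730.3 to 8225 CPM).

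**Figure D2:**
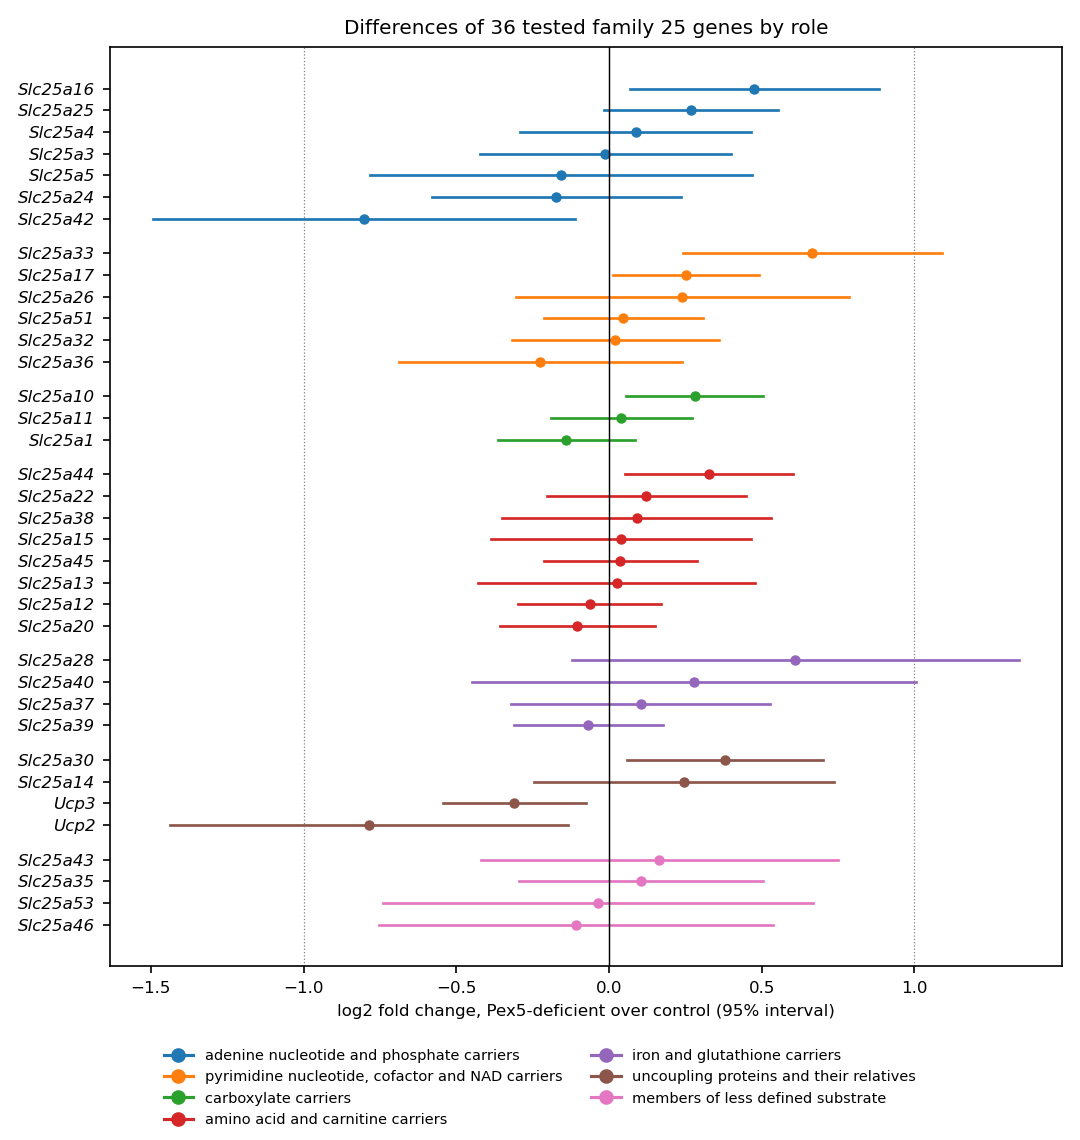
Log2 fold change of Pex5-deficient over control (points) with its 95% interval from edgeR's quasi-likelihood fit (lines) for 36 tested members, coloured by role. Dotted lines mark 2-fold changes. Most intervals cross 0. Those of Slc25a33, Slc25a10, Slc25a30, Slc25a44, Slc25a16 and Slc25a17 lie above it, and those of Ucp2, Ucp3 and Slc25a42 below it.

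Among the uncoupling proteins and their relatives, Ucp2 was the lead gene of the family and ranked 15 of all rows by mean level. It lies on chromosome 7 from 100493337 to 100502020 (GRCm38). Ucp2 measured 4618, 3154 and 5038 CPM in Pex5-deficient replicates 1 to 3, against 8225, 6730.3 and 7109 CPM in control replicates 1 to 3. All 3 Pex5-deficient libraries were below all 3 control libraries, and replicate 2, the library that stood apart, was the lowest. The means were 4270.1 ± 989 CPM in Pex5-deficient and 7355 ± 777 CPM in control macrophages (SD, n = 3 each), a ratio of 0.581. The log2 fold change was -0.78 ± 0.29 (SE), with a 95% interval from -1.44 to -0.13, and the adjusted p was 0.185. Whether Ucp2 was called turned on the scaling and the tool. With library size alone the levels were 4430.3, 4214 and 4592 CPM in Pex5-deficient replicates 1 to 3, against 7391, 6190.3 and 7339.9 CPM in control replicates 1 to 3. The log2 fold change was then -0.66, or -0.83 measured from the median of all genes, and the adjusted p 0.000107. DESeq2 gave -0.78 with an adjusted p of 0.00264. Without Pex5-deficient replicate 2 the log2 fold change was -0.59 and the adjusted p 0.0549. Over the 12 alternatives the log2 fold change lay between -0.92 and -0.59, always lower in Pex5-deficient macrophages, and the adjusted p between 0.000107 and 0.466. A 305-base stretch of Ucp2 exon is shared with Dnajb13 on the opposite strand, and 5.30% of the 100-base words of Ucp2 occur in another gene. Which strand setting the counting used is not stated in those sources.

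**Figure D3:**
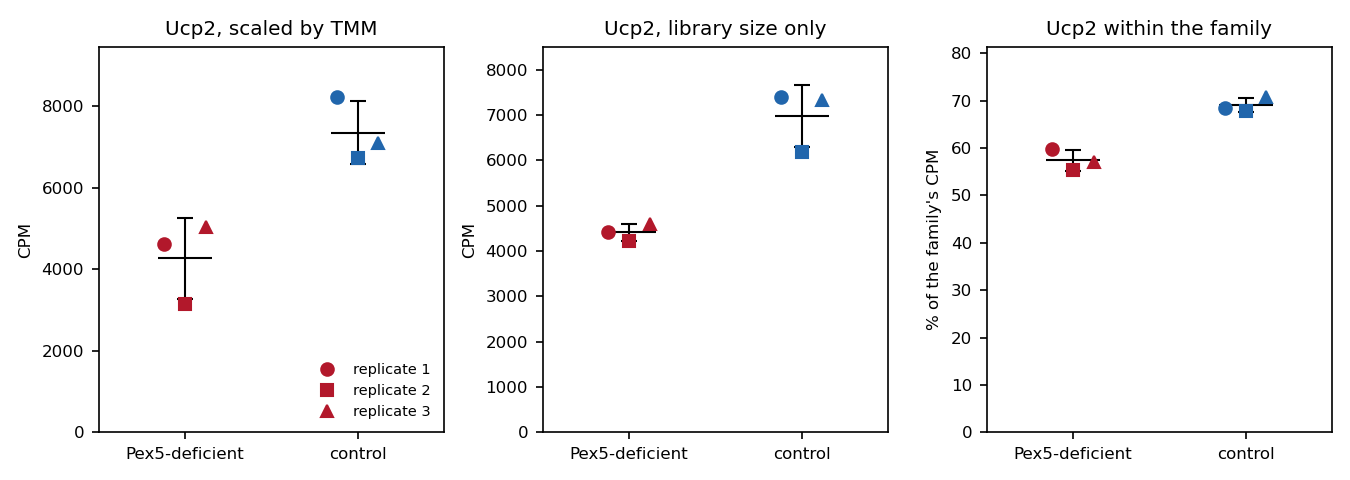
Ucp2 in each library as CPM scaled by TMM (left), CPM of the library size alone (middle) and percent of the family's summed CPM (right), with the mean (bar) and SD (whiskers) of 3 libraries per group. The Pex5-deficient libraries lie below the control libraries in each panel, at 55.4% to 59.8% of the family against 67.9% to 70.7%.

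The other members together did not share the pattern of Ucp2. Their summed level was 3105, 2538 and 3796 CPM in Pex5-deficient replicates 1 to 3, against 3775, 3187 and 2946 CPM in control replicates 1 to 3. These overlapped, with means of 3146 ± 630.3 CPM in Pex5-deficient and 3303 ± 426 CPM in control macrophages (SD, n = 3 each). Slc25a5, Slc25a3 and Slc25a4 together made up most of that sum, at means of 2103 CPM in Pex5-deficient and 2250 CPM in control macrophages. The sum thus says little about the less abundant members. With Ucp2 included, family 25 took 0.741% to 0.805% of all counts in Pex5-deficient and 0.912% to 1.08% in control libraries. These shares are of raw counts without TMM scaling, and Ucp2 made up most of the family in every library.

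Ucp3, known best from skeletal muscle, lies 6904 bases before Ucp2 on the same strand, on chromosome 7 from 100472990 to 100486432. Ucp3 measured 48.6, 55.0 and 49.1 CPM in Pex5-deficient replicates 1 to 3, against 59.8, 68.4 and 61.2 CPM in control replicates 1 to 3. All Pex5-deficient values were lower, by a log2 fold change of -0.31 ± 0.10 (SE, adjusted p = 0.150), and no alternative called it (adjusted p from 0.113 to 0.887). Ucp3 shared none of its 100-base words with Ucp2 or any other gene. Slc25a30, a carrier for sulfur and carboxylate anions known best from kidney, was higher in all Pex5-deficient libraries. Slc25a30 measured 22.8, 27.9 and 21.3 CPM in Pex5-deficient replicates 1 to 3, against 18.3, 20.5 and 16.5 CPM in control replicates 1 to 3. Its groups did not overlap, and its log2 fold change of 0.38 ± 0.14 (SE) had an adjusted p of 0.190. Slc25a14, a relative of the uncoupling proteins first found in brain, was low and overlapped, at 4.21 ± 0.764 CPM in Pex5-deficient and 3.57 ± 0.167 CPM in control macrophages. Ucp1 reached at most 2 counts in a library and Slc25a27 had 0 counts throughout.

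The carriers of adenine nucleotides and phosphate supply the ATP synthase and export its product. Slc25a5, Slc25a3 and Slc25a4 had the most counts after Ucp2, and in all of them the genotypes overlapped. In 3 of the 7 tested members of this role they did not (42.9%, against 26.1% of all genes). Slc25a5 encodes the ADP/ATP carrier of most dividing and immune cells. Slc25a5 measured 1312, 895 and 1779.8 CPM in Pex5-deficient replicates 1 to 3, against 1815, 1401 and 1233 CPM in control replicates 1 to 3. The libraries of each genotype differed among themselves by more than the genotypes did, and the log2 fold change was -0.16 ± 0.27 (SE, adjusted p = 0.806). It was above 0 without Pex5-deficient replicate 2 (0.08) or without control replicate 1 (0.01). Of its 100-base words 12.01% occur in other genes, most of all in Gm5560, so its level is uncertain. Per kilobase of transcript Slc25a5 stood at 1072 CPM in Pex5-deficient and 1196 CPM in control macrophages, and Ucp2 at 1071 CPM in Pex5-deficient and 1844 CPM in control macrophages. Slc25a3, the phosphate carrier, measured 589.6, 460.3 and 678 CPM in Pex5-deficient replicates 1 to 3, against 658, 551 and 534 CPM in control replicates 1 to 3. Its log2 fold change was -0.01 ± 0.18 (SE, adjusted p = 0.981), and 0.13 with library size alone. Slc25a4, the ADP/ATP carrier of heart and muscle, measured 197 ± 39.8 CPM in Pex5-deficient and 186 ± 24.9 CPM in control macrophages (SD, n = 3 each).

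Smaller carriers of this role leaned both ways, and none was called among the 7 tested. Slc25a42 brings coenzyme A into the matrix. Slc25a42 measured 0.939, 1.597 and 0.961 CPM in Pex5-deficient replicates 1 to 3, against 2.03, 2.004 and 2.23 CPM in control replicates 1 to 3, all lower. These rest on 12, 38 and 17 counts in Pex5-deficient and 26, 35 and 33 counts in control libraries, and the log2 fold change of -0.80 ± 0.30 (SE) had an adjusted p of 0.200. Without Pex5-deficient replicate 2 it was -1.12 with an adjusted p of 0.0870, the lowest of its 11 alternatives, whose highest was 0.644. Slc25a16, a carrier likewise linked to coenzyme A, measured 10.9, 13.1 and 10.3 CPM in Pex5-deficient replicates 1 to 3, against 9.86, 7.33 and 7.56 CPM in control replicates 1 to 3. All Pex5-deficient values were higher, with a log2 fold change of 0.48 ± 0.18 (SE, adjusted p = 0.198). Slc25a25, which exchanges ATP-magnesium for phosphate under the control of calcium, measured 18.9, 22.9 and 20.5 CPM in Pex5-deficient replicates 1 to 3, against 16.7, 18.8 and 16.1 CPM in control replicates 1 to 3. The lowest Pex5-deficient value was just above the highest control value, and the log2 fold change was 0.27 ± 0.13 (SE, adjusted p = 0.289). Slc25a24, a carrier of the same exchange, overlapped at 49.0 ± 10.5 CPM in Pex5-deficient and 55.2 ± 10.4 CPM in control macrophages.

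Among carriers of pyrimidine nucleotides and cofactors, Slc25a33 had the smallest p of the family. It brings pyrimidine nucleotides into mitochondria for the synthesis of their DNA and RNA, and is known to respond to insulin-like growth factor signalling. It lies on chromosome 4 from 149744036 to 149774277. Slc25a33 measured 10.5, 8.32 and 7.97 CPM in Pex5-deficient replicates 1 to 3, against 5.63, 4.98 and 6.21 CPM in control replicates 1 to 3. Every Pex5-deficient library was higher, and the ratio of the means was 1.59. The log2 fold change of 0.67 ± 0.19 (SE, 95% interval 0.24 to 1.09) had an adjusted p of 0.0975, and over its 12 alternatives the adjusted p lay between 0.0536 and 0.270. Gm13068, a predicted gene on the opposite strand, overlaps 281 bases of its exons and holds 10.2% of its 100-base words, so its level is uncertain. Slc25a36, the other pyrimidine nucleotide carrier, measured 51.9, 60.2 and 88.9 CPM in Pex5-deficient replicates 1 to 3, against 92.4, 76.2 and 66.7 CPM in control replicates 1 to 3. These overlapped widely, with a log2 fold change of -0.23 ± 0.20 (SE, adjusted p = 0.599). It was -0.074, -0.14 and -0.48 when Pex5-deficient replicates 1 to 3 were left out in turn, and -0.092 when control replicate 1 was.

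Slc25a17, the member of the peroxisomal membrane, carries coenzyme A, FAD and NAD. It lies on chromosome 15 from 81318911 to 81360812. Slc25a17 measured 32.0, 29.7 and 34.0 CPM in Pex5-deficient replicates 1 to 3, against 28.5, 24.8 and 27.1 CPM in control replicates 1 to 3. All Pex5-deficient values were higher, by a ratio of 1.19. The log2 fold change of 0.25 ± 0.10 (SE, 95% interval 0.01 to 0.49) had an adjusted p of 0.241, and the interval held no change of 1.5-fold. The carriers of folate (Slc25a32), S-adenosylmethionine (Slc25a26) and NAD (Slc25a51) all overlapped between the genotypes, with log2 fold changes from 0.02 to 0.24. Slc25a51 was the most abundant of them, at 36.98 ± 4.03 CPM in Pex5-deficient and 35.7 ± 2.80 CPM in control macrophages.

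The carboxylate carriers link the citric acid cycle to the cytosol, and 3 of 4 were tested. Slc25a11, which exchanges oxoglutarate for malate, was level in all libraries, at 183, 167 and 179 CPM in Pex5-deficient replicates 1 to 3, against 173, 168 and 173 CPM in control replicates 1 to 3. Its log2 fold change was 0.04 ± 0.10 (SE, adjusted p = 0.872). Slc25a10, the dicarboxylate carrier, measured 29.6, 30.5 and 30.7 CPM in Pex5-deficient replicates 1 to 3, against 26.05, 23.1 and 25.7 CPM in control replicates 1 to 3. The Pex5-deficient values were higher and close to each other, and the log2 fold change of 0.28 ± 0.10 (SE) had an adjusted p of 0.169. The predicted gene Gm11788 on the opposite strand holds 6.70% of its words. Slc25a1, which exports citrate for fatty acid synthesis, measured 109.9, 115.3 and 108 CPM in Pex5-deficient replicates 1 to 3, against 125, 128 and 114.5 CPM in control replicates 1 to 3. The highest Pex5-deficient value was just above the lowest control value, and the log2 fold change of -0.14 ± 0.10 (SE, adjusted p = 0.491) became 0.04 with library size alone. Slc25a21 had 0 counts in every library.

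The carriers of amino acids and carnitine were close between the genotypes, with log2 fold changes from -0.10 to 0.33 over the 8 tested. Slc25a44, which brings branched-chain amino acids into mitochondria, measured 34.7, 32.1 and 35.8 CPM in Pex5-deficient replicates 1 to 3, against 23.9, 31.3 and 26.5 CPM in control replicates 1 to 3. All Pex5-deficient values were higher, control replicate 2 lying just below them, and the adjusted p of its log2 fold change of 0.33 ± 0.12 (SE) was 0.191. Slc25a20 exchanges acylcarnitine for carnitine and so admits long-chain fatty acids for oxidation. Slc25a20 measured 34.3, 38.2 and 34.0 CPM in Pex5-deficient replicates 1 to 3, against 34.4, 37.6 and 42.5 CPM in control replicates 1 to 3. These overlapped, and the log2 fold change was -0.10 ± 0.11 (SE, adjusted p = 0.668), or 0.07 with library size alone. Its 95% interval, -0.36 to 0.15, held no change of 1.5-fold. The aspartate-glutamate carriers Slc25a12 and Slc25a13 had log2 fold changes of -0.06 ± 0.10 (0.10 with library size alone) and 0.03 ± 0.20 (SE), and the glutamate carrier Slc25a22 had 0.12 ± 0.14.

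Of the 4 carriers linked to iron and glutathione, 0 reached an unadjusted p under 0.05, where 18.9% of all genes did. All 4 overlapped between the genotypes. So few genes cannot show whether this role differs from all genes in that share. The intervals of Slc25a28 (-0.12 to 1.34, log2) and Slc25a40 reached past a 2-fold change, so a change of that size was not excluded for them. Slc25a39, which brings glutathione into mitochondria, measured 134, 117 and 128 CPM in Pex5-deficient replicates 1 to 3, against 129.6, 142 and 126 CPM in control replicates 1 to 3. Its log2 fold change of -0.07 ± 0.11 (SE, adjusted p = 0.788) became 0.09 with library size alone. Slc25a28, the mitoferrin of most tissues, was low, at 2.27, 2.86 and 1.41 CPM in Pex5-deficient replicates 1 to 3, against 1.33, 1.55 and 1.42 CPM in control replicates 1 to 3. One Pex5-deficient library lay within the control range, and the log2 fold change was 0.61 ± 0.32 (SE, adjusted p = 0.343). It was 0.34 without Pex5-deficient replicate 2 and 0.85 without Pex5-deficient replicate 3. Slc25a37, the mitoferrin of red cell precursors, measured 7.35 ± 0.634 CPM in Pex5-deficient and 6.84 ± 1.12 CPM in control macrophages (SD, n = 3 each).

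Of the members of less defined substrate, Slc25a46, a factor of mitochondrial shape in the outer membrane, was the most abundant and the most variable among libraries of one genotype. Slc25a46 measured 52.9, 38.5 and 80.3 CPM in Pex5-deficient replicates 1 to 3, against 79.6, 62.1 and 43.3 CPM in control replicates 1 to 3. These overlapped from end to end, with a log2 fold change of -0.11 ± 0.28 (SE, adjusted p = 0.879). It was 0.02 with library size alone, 0.13 without Pex5-deficient replicate 2 and 0.12 when control replicate 1 was left out. The 19 tested members outside the rule for naming had adjusted p-values from 0.587 to 0.981 and log2 fold changes from -0.17 (Slc25a24) to 0.28 (Slc25a40). The 13 members that were not tested were at or near the limit of detection. Slc25a21, Slc25a27, Slc25a41, Slc25a48 and Slc25a54 had 0 counts in all 6 libraries. A count of 0 allows a level of 3 counts. By library size alone, without TMM scaling, 3 counts correspond to 0.155 to 0.225 CPM in Pex5-deficient and 0.158 to 0.211 CPM in control libraries. The other 8 had at most 5 counts in a library, except Slc25a29, a carrier of basic amino acids, with up to 15. Such limits cover counting error only.

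Slc25a46, Slc25a36 and Slc25a5 were each highest in the same library of each genotype. For 15 of 37 tested members (40.5%, against 19.0% of all genes) Pex5-deficient replicate 3 was the highest Pex5-deficient library and control replicate 1 the highest control library. Among them were Slc25a3, Slc25a4, Slc25a5, Slc25a24, Slc25a36, Slc25a46 and Ucp2. Over all tested genes, too, Pex5-deficient replicate 3 and control replicate 1 deviated from their group means together (r = 0.40). That was the highest r between libraries of different genotypes. The count of 15 was made after the values had been seen, the libraries share scaling and depth, and what differs between them was not tested.

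Shares within pairs of related carriers do not depend on how libraries are scaled. In 5 pairs both members averaged at least 5 CPM, and with 3 libraries a group the smallest p of a two-sided exact permutation test is 0.1. Slc25a10 made up 13.9%, 15.4% and 14.7% of the CPM of Slc25a10 and Slc25a11 in Pex5-deficient replicates 1 to 3, against 13.1%, 12.1% and 12.9% in control replicates 1 to 3. These did not overlap (p = 0.1 by the exact test), with an adjusted p of 0.333 over the 5 pairs. Slc25a33 made up 16.8%, 12.1% and 8.23% of its pair with Slc25a36 in Pex5-deficient replicates 1 to 3, against 5.75%, 6.14% and 8.52% in control replicates 1 to 3. Pex5-deficient replicate 3 lay within the control range, and the difference of 5.59 percentage points had p = 0.2 by the exact test and an adjusted p of 0.333. It was 3.39 points without Pex5-deficient replicate 1 and 7.67 points without Pex5-deficient replicate 3. Slc25a4 was 13.3% ± 2.48 of the ADP/ATP carriers in Pex5-deficient and 11.2% ± 0.688 in control macrophages (SD, n = 3 each, exact p = 0.2). Slc25a24 was 69.8% ± 5.51 of its pair with Slc25a25 in Pex5-deficient and 75.9% ± 3.59 in control macrophages (SD, n = 3 each, exact p = 0.3). Slc25a12 was 81.4% ± 2.60 of the aspartate-glutamate carriers in Pex5-deficient and 82.3% ± 3.01 in control macrophages (SD, n = 3 each, exact p = 0.9). The pairs with a low partner were not tested. Slc25a37 was 77.4% ± 5.75 of the mitoferrins in Pex5-deficient and 82.4% ± 3.56 in control macrophages, and Slc25a39 was 96.6% ± 0.435 of its pair with Slc25a40 in Pex5-deficient and 97.3% ± 1.298 in control macrophages.

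**Figure D4:**
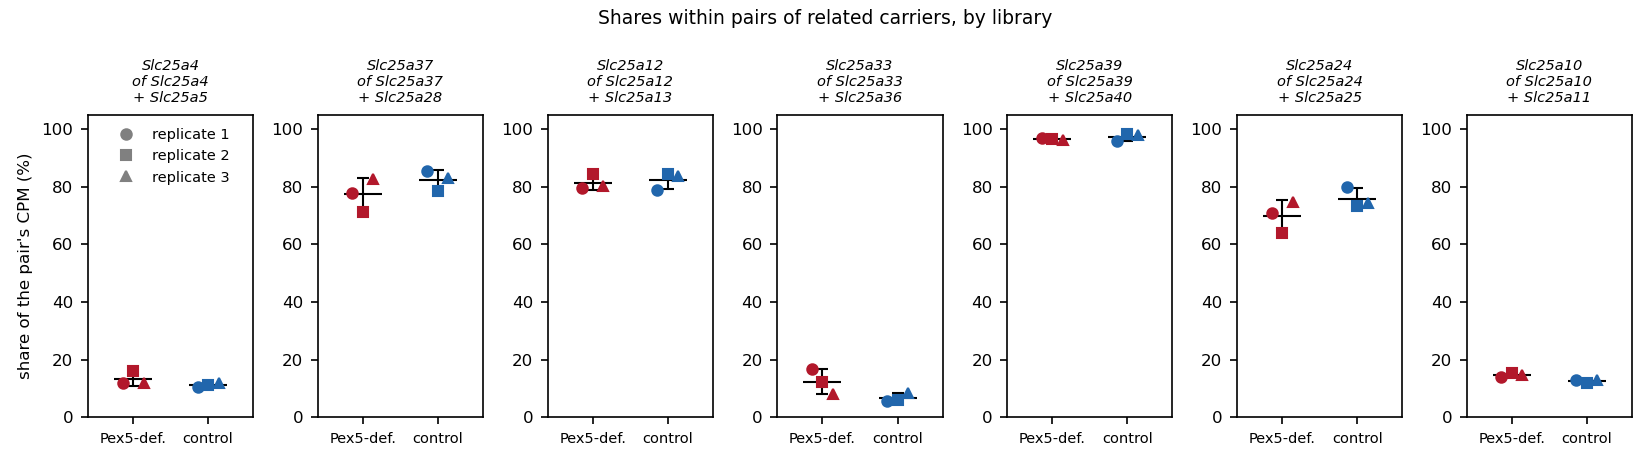
Share of one carrier in the summed CPM of its pair (percent, not corrected for length) in each library, with the mean (bar) and SD (whiskers) of 3 libraries per group, for 7 pairs. Most pairs overlap between genotypes, and the share of Slc25a10 is higher in all Pex5-deficient libraries (13.9% to 15.4%, against 12.1% to 13.1%).

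Genes that insert the carriers into the inner membrane, or feed and drain them, were read from 5 lists. Of 13 genes of the carrier import path, 1 was called, higher (7.69%, against 3.25% of all genes). It was Timm10, one of the small chaperones that escort carriers across the space between the membranes. Timm10 measured 32.0, 32.6 and 31.9 CPM in Pex5-deficient replicates 1 to 3, against 22.2, 24.3 and 24.3 CPM in control replicates 1 to 3, a log2 fold change of 0.45 ± 0.10 (SE, adjusted p = 0.0431). Its call ended when any 1 library was left out, with an adjusted p of 0.127, 0.0620 and 0.0963 when Pex5-deficient replicates 1 to 3 were left out, and 0.160, 0.116 and 0.115 when control replicates 1 to 3 were. It also ended with library size alone (adjusted p = 0.219), and its 12 alternatives ran from 0.0229 to 0.219. Tomm20, a receptor of the outer membrane, measured 66.2 ± 5.84 CPM in Pex5-deficient and 49.0 ± 5.19 CPM in control macrophages (SD, n = 3 each, adjusted p = 0.0899), and Timm8b, another small chaperone, 41.4 ± 6.01 CPM in Pex5-deficient and 31.4 ± 0.697 CPM in control macrophages (adjusted p = 0.128). Of the 13 genes, 12 had a positive log2 fold change, the median was 0.26, and 5 did not overlap between the genotypes (38.5%, against 26.1% of all genes).

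Of 11 tested enzymes of the malate-aspartate and citrate shuttles, 1 was called, higher (9.09%, against 3.25% of all genes). It was Got1, the cytosolic aspartate aminotransferase that works with Slc25a12 and Slc25a13. Got1 measured 26.1, 23.9 and 32.2 CPM in Pex5-deficient replicates 1 to 3, against 15.5, 18.04 and 16.1 CPM in control replicates 1 to 3, a log2 fold change of 0.73 ± 0.14 (SE, adjusted p = 0.0307). All Pex5-deficient libraries were higher. Got1 was no longer called without Pex5-deficient replicate 1 (adjusted p = 0.0891) or 3 (0.0666), nor when control replicate 1 (0.130), 2 (0.0674) or 3 (0.102) was left out, and over the 12 alternatives the adjusted p ran from 0.00254 to 0.130. Acly, which splits the citrate that Slc25a1 exports, measured 189 ± 17.8 CPM in Pex5-deficient and 269.7 ± 6.39 CPM in control macrophages, without overlap (log2 fold change -0.51 ± 0.12, adjusted p = 0.0532). Me2, the malic enzyme of the matrix, measured 115 ± 10.7 CPM in Pex5-deficient and 155 ± 14.4 CPM in control macrophages (-0.43 ± 0.12, adjusted p = 0.0944). DESeq2 called 3 of the 12 it tested, Got1 higher and Acly and Me2 lower, where it called 6.02% of 12314 genes. Of the 11 enzymes, 9 had a negative log2 fold change and the median was -0.08. The genotypes did not overlap for 5 of them, 1 higher and 4 lower (45.5%, against 26.1% of all genes, 13.1% in the lower direction).

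The 3 remaining lists had 0 calls by edgeR's quasi-likelihood test. Of 9 tested genes of the carnitine shuttle 3 had an unadjusted p under 0.05 (33.3%, against 18.9% of all genes), and DESeq2 called 1, Cpt1a, where it called 6.02% of all genes. Cpt1a makes the acylcarnitine that Slc25a20 admits. Cpt1a measured 277, 256 and 281 CPM in Pex5-deficient replicates 1 to 3, against 432, 361 and 395 CPM in control replicates 1 to 3. All Pex5-deficient values were lower, and the log2 fold change of -0.55 ± 0.13 (SE) had an adjusted p of 0.0567. Acsl3, an acyl-CoA synthetase, had 0.58 ± 0.24 (adjusted p = 0.243). Cpt2, which takes the acyl group back inside, had -0.57 ± 0.25 (SE, adjusted p = 0.264), with Pex5-deficient replicate 1 at 61.2 CPM inside the control range and the others at 29.7 and 32.0 CPM. Without that library Cpt2 was called at -0.97, without Pex5-deficient replicate 2 it was -0.37 and not called, and Cpt1a was called there.

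Of 16 tested genes listed as other mitochondrial solute transporters, 3 had an unadjusted p under 0.05 (18.75%, against 18.9% of all genes). DESeq2 called 2 of them, Mpc1 and Sfxn3, against 6.02% of all genes. The list also held Mtch1 and Mtch2, whose symbols the rule for members did not take. Mpc1, a subunit of the pyruvate carrier, measured 167, 125 and 179 CPM in Pex5-deficient replicates 1 to 3, against 65.0, 113 and 101 CPM in control replicates 1 to 3. All Pex5-deficient values were higher, with a log2 fold change of 0.75 ± 0.21 (SE, adjusted p = 0.10). Sfxn3, a sideroflexin of the family that carries serine, measured 88.6, 108 and 104 CPM in Pex5-deficient replicates 1 to 3, against 169.7, 119.9 and 161 CPM in control replicates 1 to 3, all lower, with -0.59 ± 0.15 (SE, adjusted p = 0.0816). Abcb8, a transporter of the inner membrane, had 0.29 ± 0.12 (adjusted p = 0.250). Of 15 tested genes of mitochondrial iron and haem 4 had an unadjusted p under 0.05, all higher (26.7%, against 18.9% of all genes and 9.70% in the higher direction), and DESeq2 called 0. Isca2 and Glrx5, of iron-sulfur cluster assembly, had 0.52 ± 0.15 (adjusted p = 0.112) and 0.40 ± 0.14 (adjusted p = 0.169), and Uros, of haem synthesis, had 0.61 ± 0.23 (adjusted p = 0.192). In this list 7 genes did not overlap between the genotypes, all higher (46.7%, against 13% of all genes in that direction).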

How the data were processed

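RNA was measured in 6 libraries of alveolar macrophages sorted from lavage fluid, per the labels' protocols from 50000 cells each. The kit was a stranded SMART-Seq one, and reads were single-end and 100 bases long. The authors deposited raw counts per gene symbol. The submitters' processing notes name STAR, featureCounts, R 4.3.2, DESeq2 1.40.1 and the builds GRCm38.p5 and mm10, without order. The protocol includes PCR, and molecular identifiers are not mentioned. Replicates of a group were checked against each other, and no pair agreed within sampling noise.

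The counts were tested with edgeR 4.0.16 (R 4.3.3; filterByExpr with a minimum count of 10 and a total of 15, TMM factors, quasi-likelihood F test, two-sided, Benjamini-Hochberg adjustment over all 11011 genes tested). Levels are CPM on TMM-scaled library sizes. The standard error of a log2 fold change is its size divided by the square root of F. DESeq2 1.42.0 was an alternative, as were other scaling, filters, a replicate block and leaving out each library. Positions, transcript lengths (median of coding transcripts), exon overlaps and shared 100-base words came from GENCODE M21 (GRCm38). Only the edgeR fit was tested on simulated counts, in which the known changes were larger than any estimated for a tested member. Members given by library were the 12 with the smallest p, the most abundant of each role, Slc25a17 and Ucp2, with any called. Values of other members, such as Slc25a3 and Slc25a4, were added after they had been seen. Of each list, called genes and the 3 with the smallest p were named. Members and lists were chosen with earlier results of these data known. A tested member enters the counts but is not reported here by name.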

Additional observations from a re-analysis of the deposited data

How the results depend on the processing

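The count of called members was 0 with other size factors (RLE), without a low-count filter, with a mean of at least 5 CPM, with the replicate block and without any 1 library, and 1 (Ucp2) with library size alone and with DESeq2. All genes called numbered 358, against 741 with DESeq2, 83 with the replicate block and 76 to 523 over the libraries left out. Scaling by library size alone gave 289 higher and 132 lower, against 192 and 166. The import list had 1 call, against 0 with library size alone, 0 with the replicate block and 0 to 1 over the libraries left out. The shuttle enzymes had 1, against 3 with DESeq2, 0 with the replicate block and 0 to 1 over the libraries left out. Other transporters had 0, against 1 with library size alone, 2 with DESeq2 and 0 to 1 over the libraries left out. The carnitine list had 0, against 1 with DESeq2 and 0 to 1 over the libraries left out, and the iron and haem list 0 throughout. The share of Slc25a33 in its pair differed by 5.59 percentage points, and by 10.4 per kilobase of transcript. The causes were not tested.

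Signs turned with library size alone for Slc25a1 (0.041), Slc25a20 (0.073), Slc25a39 (0.093), Slc25a46 (0.017), Slc25a3 (0.13), Slc25a12 (0.10) and Slc25a53 (0.11). They turned without Pex5-deficient replicate 2 for Slc25a5 (0.076) and Slc25a46 (0.13), and without control replicate 1 for Slc25a5 (0.01) and Slc25a46 (0.12). Over the libraries left out, Slc25a5 lay between -0.43 and 0.076 and Slc25a46 between -0.44 and 0.13. Among the 18 members given by the naming rule and the genes named from the lists, no others changed direction. The replicate numbers were not taken as pairs, since the sources used here do not say that they pair samples. Same-numbered libraries deviated with r of -0.21, -0.06 and -0.41. Deviations from a group's mean cancel out within that group, so the r values depend on one another and cannot decide on pairing. The highest r between libraries of different genotypes was 0.40, of Pex5-deficient replicate 3 with control replicate 1. With 3 libraries a group, the median standard error of a member's log2 fold change was 0.18.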
